A study of Mus musculus with 18 samples.

Results

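Of 10 listed genes of the p53 pathway, cell senescence and DNA repair, 9 were measured in the mouse hippocampus (CDKN1A, CDKN2A, MDM2, BAX, PHLDA3, AEN, CCNG1, XRCC1 and ATM), out of 15644 genes and 1146 transposable element (TE) subfamilies in the count tables, and TRP53, the gene of p53 itself, was not analysed here. The genes were taken by name and not by a cut on their levels, with earlier results of these data known. None of the 9 passed the test over all genes, with age (older against younger mice), with 3TC (older 3TC-treated against older mice) or between treated and younger mice. The groups overlapped for all 9 in each of these comparisons. Overlap was not counted over all genes, so it describes these 9 and does not set them apart from other genes. The mice were C57/B6, in 3 groups of 6 (3 males and 3 females each): older 3TC-treated mice, aged 20 months and given 3TC at 2 mg/mL in drinking water for 6 weeks, older control mice, aged 20 months, and younger control mice, aged 9 months. 3TC (lamivudine) is a nucleoside analog that blocks reverse transcriptase. Each library came from the hippocampus of 1 mouse, a tissue of many cell types, so that fewer cells of a type and less RNA per cell cannot be told apart. At low levels, X-linked genes had lower counts in males (below). How far the members' counts follow gene copies was not tested.

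p53 is a transcription factor that is held at low levels by the ubiquitin ligase MDM2 and is stabilized after DNA damage, when the kinase ATM, activated by double-strand breaks, phosphorylates it. It then induces genes that stop the cell cycle (CDKN1A, which encodes the CDK inhibitor p21), that promote cell death (BAX, a pore-forming protein of mitochondria, AEN, a nuclease, and PHLDA3, an inhibitor of AKT), and that feed back on the response (MDM2 and CCNG1, or cyclin G1). CDKN2A encodes p16INK4A, a CDK inhibitor widely used as a marker of senescent cells, and p19ARF, which inhibits MDM2, from separate start sites. XRCC1 is the scaffold on which single-strand breaks are repaired.

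The p53 protein binds a pair of copies of a 10-base element, the p53 half-site, and the windows around the start sites of 3 members are shown because these p53 targets held a full site, a half-site beside an imperfect copy and a lone half-site. The sequences are RefSeq windows of GRCm38.p6 (the same assembly as mm10), from 250 bases before to 50 bases after the start, written 5′ to 3′ on the gene's strand, and capitals mark half-sites. All 9 members matched, with 12 windows. CDKN1A at its upstream start (chr17:29090729-29091028, plus strand) had 2 half-sites, at -73 and -51 from the start and separated by 12 bases, which together form a full site with 0 mismatches, and the second is followed directly by a copy with 1 mismatch, also in capitals. CCNG1 (chr11:40755237-40755536, minus strand) had 1 half-site, at -185, preceded directly by a copy with 1 mismatch, also in capitals. MDM2 (chr10:117710709-117711008, minus strand) had 1 half-site, at -186.
CDKN1A: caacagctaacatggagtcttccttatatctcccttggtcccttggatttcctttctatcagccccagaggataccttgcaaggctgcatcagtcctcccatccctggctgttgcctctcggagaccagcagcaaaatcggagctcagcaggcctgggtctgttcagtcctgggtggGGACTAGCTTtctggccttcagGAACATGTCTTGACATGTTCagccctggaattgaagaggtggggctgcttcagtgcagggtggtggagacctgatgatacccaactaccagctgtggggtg
CCNG1: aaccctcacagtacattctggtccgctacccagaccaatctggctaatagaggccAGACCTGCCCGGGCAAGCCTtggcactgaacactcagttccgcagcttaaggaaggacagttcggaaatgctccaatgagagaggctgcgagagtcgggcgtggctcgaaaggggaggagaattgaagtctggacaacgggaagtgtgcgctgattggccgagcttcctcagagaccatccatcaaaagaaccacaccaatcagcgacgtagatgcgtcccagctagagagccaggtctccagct
MDM2: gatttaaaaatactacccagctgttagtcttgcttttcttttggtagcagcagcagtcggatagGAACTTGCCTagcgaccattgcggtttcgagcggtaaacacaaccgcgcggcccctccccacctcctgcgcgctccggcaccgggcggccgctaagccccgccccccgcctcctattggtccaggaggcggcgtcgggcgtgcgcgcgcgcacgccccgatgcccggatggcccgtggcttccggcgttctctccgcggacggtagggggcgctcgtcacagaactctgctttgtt

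Half-sites were also found in the windows of BAX and AEN, and the letters were not matched in those of PHLDA3, XRCC1, ATM, CDKN2A (both starts) or the downstream start of CDKN1A. The p53 half-site, which reads the same on both strands, was present in 8.36% of all 32851 windows of this length, a full site with 0 mismatches and a spacer of at most 13 bases in 0.0731%, and one with at most 1 mismatch in 0.627%. Of 36 windows of the wider list of p53 target genes described below, 12 (33.3%) held a half-site. These matches describe sequence, and binding was not measured.

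Each library held 34.6 to 49.1 M counts, of which 6.01 to 13.04 M fell in genes. TEs took 65.9% to 85.1% of the counts in older 3TC-treated, 68.3% to 85.7% in older and 63.4% to 83.6% in younger mice. Levels are given in CPM, counts over the library total of genes and TEs in M, after TMM scaling, and genes were tested over 16774 genes and TEs with edgeR's quasi-likelihood test, with Benjamini-Hochberg adjustment over all of them and a threshold of 0.05 for the adjusted p. With age 0.0119% of genes and TEs passed as higher and 0% as lower, with 3TC 0% passed in either direction, and in treated against younger mice 0.0119% passed as higher and 0% as lower. Of the 15635 genes alone, 39 (0.249%) were higher and 28 (0.179%) lower at an unadjusted p under 0.05 with age, and 141 (0.902%) and 53 (0.339%) with 3TC. Evenly spread p would give larger shares, so edgeR's p may be too large and the confidence intervals too wide here. The 95% intervals below use edgeR's SEs with the residual degrees of freedom of the fit. These are fewer than its test uses, which widens the intervals further. DFO4, an older 3TC-treated female, stood apart in its cell type markers. Its 9 thalamus markers summed to 484.7 CPM, against 80.0 to 202.9 CPM in the other 17 mice, its 8 oligodendrocyte markers to 1645 CPM, against 446.5 to 1178 CPM, and its 9 markers of hippocampal neurons to 86.1 CPM, against 149.3 to 253.2 CPM. Over the groups, the 9 markers of hippocampal neurons, none of them at 0, summed to 86.1 to 249.9 CPM in older 3TC-treated, 163.4 to 243.7 CPM in older and 164.3 to 253.2 CPM in younger mice, and all 9 were below 0 in log2 fold change with 3TC (median -0.31), the sums having group medians of 169.6, 217.6 and 208.9 CPM in that order. The 9 thalamus markers were all above 0 (median 0.72), but their sum was 92.4 to 101.7 CPM in the 5 treated mice other than DFO4, and the median was 96.7 CPM in the older 3TC-treated group, against 94.9 CPM in the older group and also in the younger group. The 10 choroid plexus markers were all below 0 with 3TC (median -0.58) and varied widely, at 31.7 to 424.5 CPM (median 117.6) in older 3TC-treated, 39.7 to 659.9 CPM (median 245.1) in older and 41.3 to 645.0 CPM (median 177.3) in younger mice. The part of such markers in the values below was not tested.

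Per exon length, CCNG1 was the highest member and CDKN1A the lowest. On the TPM scale over genes alone (counts per exon length scaled to a fixed total, from the deposited counts and GENCODE vM21 exon lengths), the mean level over 18 mice was 122 TPM for CCNG1 (percentile 89.9 of measured genes), 63.3 for BAX, 61.2 for MDM2, 52.1 for PHLDA3, 46.9 for ATM, 30.8 for CDKN2A, 27.3 for XRCC1, 23.3 for AEN and 19.6 for CDKN1A (percentile 19.5). CCNG1, at 107.0 to 139.2 TPM, lay above the ranges of the other members except that of PHLDA3, whose highest mouse, DFO4, was at 126.7 TPM. BAX, MDM2, PHLDA3 and ATM overlapped in their ranges, as did XRCC1, AEN and CDKN1A, and CDKN2A, at 10.7 to 61.0 TPM, overlapped with all but CCNG1.

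**Figure D1:**
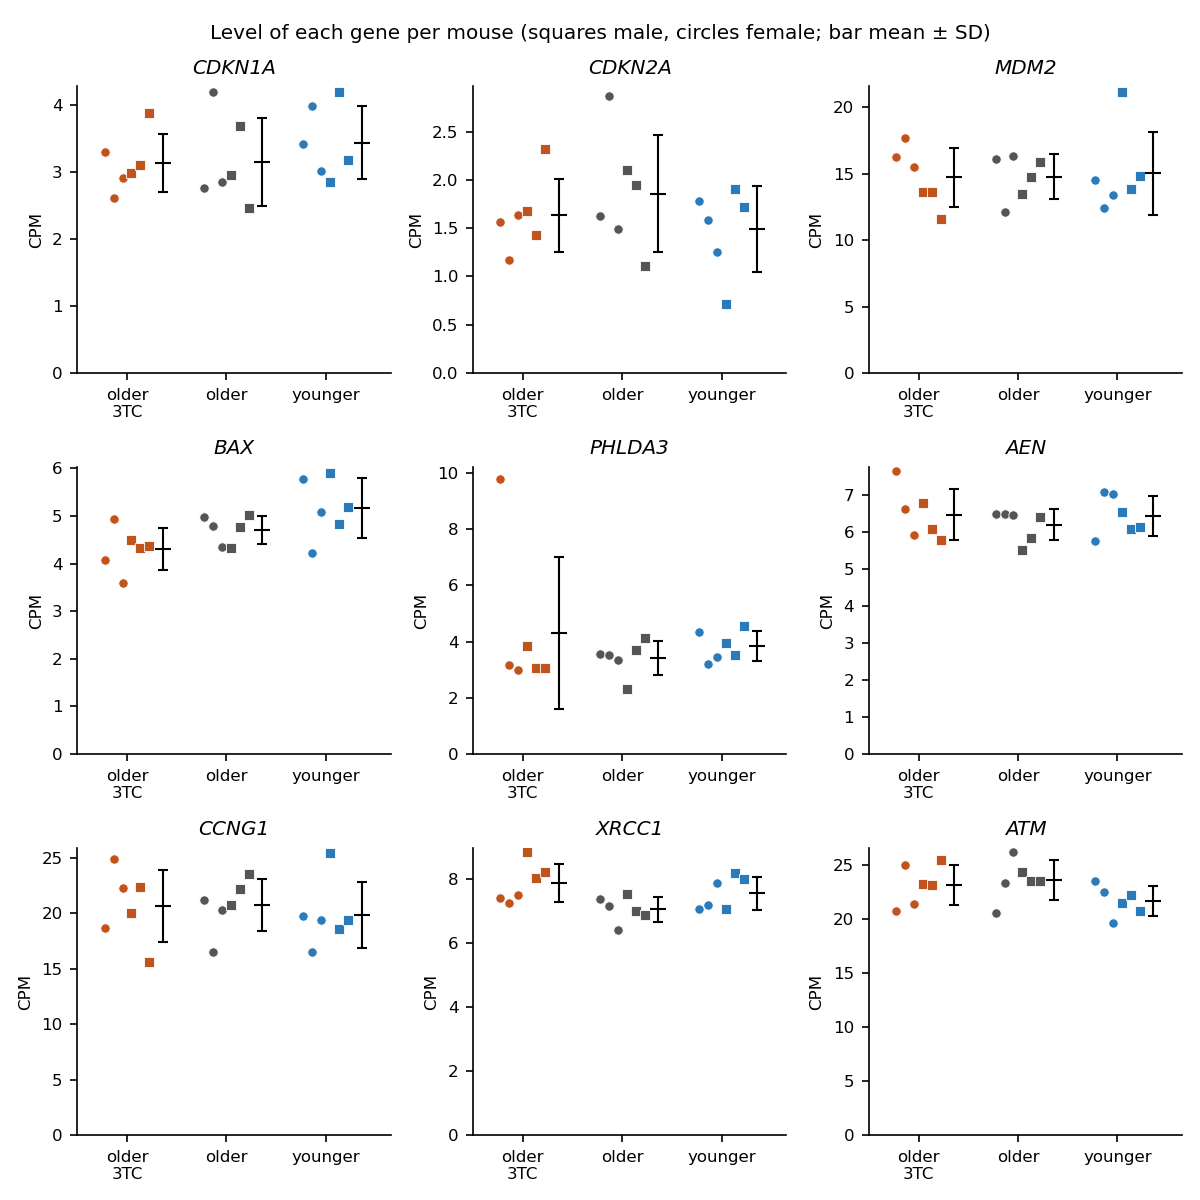
Level in CPM (y axes, from 0) of the 9 measured genes in each mouse of the older 3TC-treated, older and younger groups (x axes, 6 mice each), with squares for males, circles for females and bars for the mean ± SD. The groups overlap for every gene, and the single high point of PHLDA3 is mouse DFO4 at 9.81 CPM.

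CDKN1A and CDKN2A, the cell cycle inhibitors, are commonly measured to follow senescence with age. CDKN1A lies on chromosome 17 of mm10 from 29090976 to 29100727 on the plus strand. Its level was 2.60 to 3.87 CPM (median 3.04) in older 3TC-treated mice, 2.46 to 4.19 CPM (median 2.90) in older mice and 2.84 to 4.19 CPM (median 3.29) in younger mice, at 94 to 165 counts per mouse. No group stood apart, and 2 of the 6 older mice exceeded the younger mean. The log2 fold change was -0.13 with age (95% interval -0.43 to 0.18, standard error, SE, 0.14) and -0.01 with 3TC (-0.31 to 0.30, SE 0.14), and in edgeR's test the adjusted p of CDKN1A, as of the other 8 members in both comparisons, was 0.9999. Its exons overlap those of a transcript on the other strand, and the strand setting of the counting was not given in the sources used here.

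CDKN2A was the least counted member, with 34 to 91 counts per mouse. It lies on chromosome 4 from 89274471 to 89294653 on the minus strand, and the gene total cannot separate p16INK4A from p19ARF. Its level was 1.17 to 2.32 CPM (median 1.60) in older 3TC-treated mice, 1.11 to 2.86 CPM (median 1.79) in older mice and 0.711 to 1.91 CPM (median 1.65) in younger mice. Of the older mice 3 (CMO3, CMO1 and CFO2) lay above all younger mice, and the lowest value was that of YM1, a younger male. With age the log2 fold change was 0.31 (95% interval -0.20 to 0.82, SE 0.24), and it was 0.15 without older mouse CFO2 and 0.15 without YM1. With 3TC it was -0.18 (-0.69 to 0.33, SE 0.24), and -0.02 without CFO2. CFO2 also had the highest share of counts in TEs of all mice (85.7%) and YM1 the lowest (63.4%).

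MDM2 and CCNG1, p53 targets that restrain p53, had close medians in the 3 groups. MDM2, on chromosome 10 from 117688875 to 117710758 on the minus strand, was at 11.6 to 17.7 CPM (median 14.6) in older 3TC-treated, 12.1 to 16.3 CPM (median 15.3) in older and 12.5 to 21.1 CPM (median 14.2) in younger mice. CCNG1, on chromosome 11 from 40748552 to 40755311 on the minus strand, was at 15.6 to 24.9 CPM (median 21.1) in older 3TC-treated, 16.5 to 23.5 CPM (median 21.0) in older and 16.5 to 25.4 CPM (median 19.3) in younger mice. The highest mouse for both genes was YM1. The log2 fold change of MDM2 was -0.02 with age (95% interval -0.29 to 0.25) and -0.01 with 3TC (-0.28 to 0.26), and that of CCNG1 was 0.07 with age (-0.19 to 0.32) and -0.01 with 3TC (-0.26 to 0.25). Without YM1, MDM2 was at 0.09 and CCNG1 at 0.14 with age.

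BAX, the pore-forming death effector, had its lowest median in the treated mice, a difference that did not pass over all genes. It lies on chromosome 7 from 45461697 to 45466898 on the minus strand, with exons that overlap those of a second gene model on the same strand. Its level was 3.60 to 4.93 CPM (median 4.35) in older 3TC-treated, 4.33 to 5.02 CPM (median 4.77) in older and 4.23 to 5.92 CPM (median 5.14) in younger mice. None of the 6 treated and none of the 6 older mice exceeded the younger mean, 5.17 CPM, while the ranges overlapped. On the log2 scale the change was -0.14 with age (95% interval -0.35 to 0.07), -0.13 with 3TC (-0.34 to 0.08) and -0.27 in treated against younger mice (-0.48 to -0.06, unadjusted p = 0.0125, adjusted p = 0.99999 from edgeR). These comparisons share mice. In the two-sided exact permutation test of single genes, p for the last difference was 0.0260, with a smallest possible p of 0.00216. Of 27 such tests made over the 9 genes and 3 comparisons, 2 gave a p under 0.05. The exact test was not run over all genes, so this count has no share to stand beside. In treated against younger mice, 155 genes (0.991%) were higher and 133 (0.851%) lower at an unadjusted p under 0.05 from edgeR. BAX was 57th by p among genes.

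PHLDA3, which blocks AKT at the membrane, was set apart by 1 mouse. It lies on chromosome 1 from 135766119 to 135769136 on the plus strand. Its level in older 3TC-treated mice was 9.81 CPM (414 counts) in DFO4 and 2.99 to 3.84 CPM in the other 5, against 2.32 to 4.12 CPM (median 3.54) in older and 3.20 to 4.57 CPM (median 3.74) in younger mice. DFO4 thus lay above all 17 other mice, and the other 5 treated mice fell within the range of the older mice. With 3TC its log2 fold change was 0.33 (SE 0.25, 95% interval -0.19 to 0.86), and -0.09 without DFO4. In treated against younger mice it was 0.17, and -0.25 without DFO4. With age it was -0.16 (-0.69 to 0.36). DFO4 was also the mouse with the highest thalamus and oligodendrocyte markers (above), whose part in its PHLDA3 level was not tested. The genes most like PHLDA3 across the 18 mice, by Pearson r of log2 CPM over 15174 genes, were NRIP2 (0.90), HAPLN2 (0.88), a link protein of myelinated axons, and SLC6A9 (0.87), a glycine transporter, and without DFO4 their r was 0.68, 0.63 and 0.46.

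**Figure D2:**
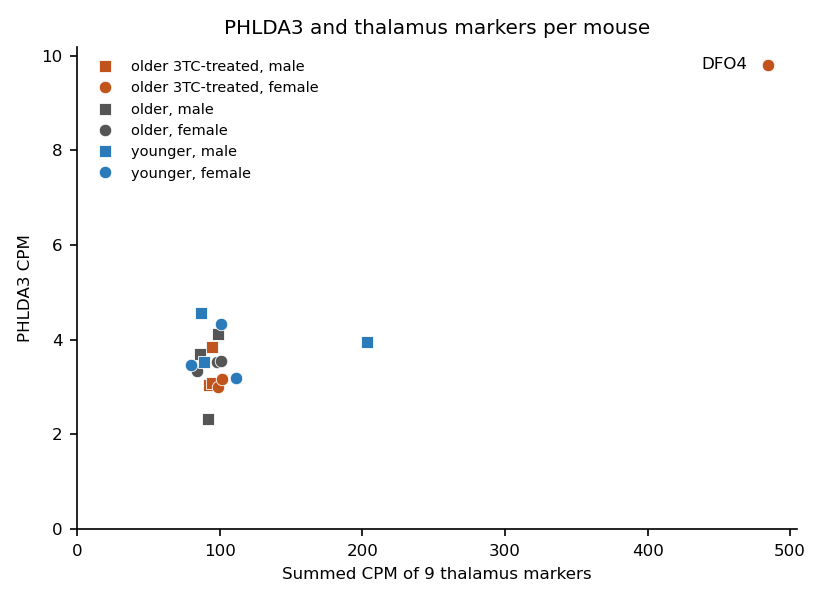
PHLDA3 level in CPM (y axis, from 0) against the summed CPM of 9 thalamus markers (x axis, from 0) in each of the 18 mice, colored by group, with squares for males and circles for females. DFO4 lies alone at 484.7 CPM of thalamus markers and 9.81 CPM of PHLDA3, and the other 17 mice lie at 4.57 CPM of PHLDA3 or lower.

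AEN, a nuclease of the apoptotic response, lies on chromosome 7 from 78895854 to 78911209 on the plus strand. Its level was 5.78 to 7.65 CPM (median 6.35) in older 3TC-treated, 5.52 to 6.48 CPM (median 6.44) in older and 5.75 to 7.09 CPM (median 6.34) in younger mice. The highest of the 18 was again DFO4. AEN was at -0.05 on the log2 scale with age (95% interval -0.24 to 0.13) and 0.06 with 3TC (-0.12 to 0.25), or 0.01 with 3TC without DFO4.

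XRCC1, the scaffold of single-strand break repair, had the smallest p of the members with 3TC. It lies on chromosome 7 from 24546289 to 24573440 on the plus strand. Its level was 7.25 to 8.84 CPM (median 7.77) in older 3TC-treated mice, 6.40 to 7.53 CPM (median 7.07) in older mice and 7.06 to 8.18 CPM (median 7.53) in younger mice. All 6 treated mice exceeded the older mean (7.05 CPM) and 3 of them, the males DMO5, DMO2 and DMO1, lay above each older mouse. Its log2 fold change was 0.16 (SE 0.08, 95% interval -0.00 to 0.32) with an unadjusted p of 0.0467 and an adjusted p of 0.9999 in edgeR, and the exact permutation p was 0.0195. The interval crosses 0 beside edgeR's unadjusted p because it uses fewer degrees of freedom than the test (above). XRCC1 was 185th by p among genes, and its unadjusted p ran from 0.0316 to 0.128 as each mouse was left out. With age the log2 fold change was -0.10 (-0.26 to 0.06, exact permutation p = 0.0866). None of the 6 older mice exceeded the younger mean (7.56 CPM), and 3 lay below each younger mouse. In treated against younger mice the log2 fold change was 0.06 (-0.10 to 0.22). The comparisons with age and with 3TC share the older mice.

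ATM, the kinase that responds to double-strand breaks, lies on chromosome 9 from 53439149 to 53536740 on the minus strand. Its level was 20.7 to 25.4 CPM (median 23.2) in older 3TC-treated, 20.5 to 26.2 CPM (median 23.5) in older and 19.6 to 23.5 CPM (median 21.9) in younger mice. Of the older mice, 5 of 6 exceeded the younger mean (21.7 CPM) and 2 each of the younger mice. On the log2 scale ATM was at 0.12 with age (95% interval -0.06 to 0.30, exact permutation p = 0.0887) and -0.03 with 3TC (-0.21 to 0.16).

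Over the 9 members, 3 were above 0 and 6 below with age (median log2 fold change -0.05), and 3 above and 6 below with 3TC (median -0.01), while the median over all genes tested was -0.01 with age and 0.01 with 3TC. Of all genes tested, 46.4% were above 0 with age and 53.4% with 3TC. The SEs were 0.08 to 0.25, so that the intervals left room for changes of up to 0.82 for CDKN2A and 0.30 for ATM with age.

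**Figure D3:**
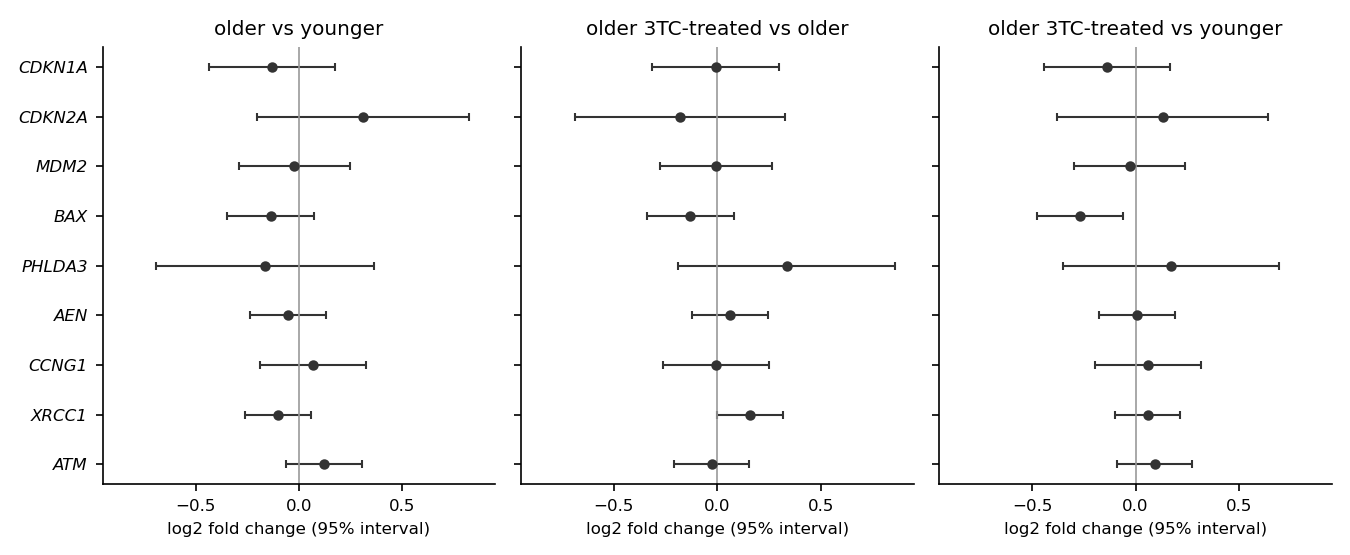
Log2 fold change of each of the 9 genes (x axes) with its 95% interval (bars, from edgeR's SE and the residual degrees of freedom of the fit), in 3 comparisons (panels), with age, with 3TC and of treated against younger mice. All intervals cross 0 except that of BAX in the last panel, at -0.48 to -0.06, and none of the genes passed after adjustment. That of XRCC1 with 3TC crosses 0 although its unadjusted p from edgeR was 0.0467. The intervals use fewer degrees of freedom than edgeR's test and are wider than it implies.

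None of the members passed between the sexes. Males were compared with females with group as a term, a comparison in which 0.0835% of genes and TEs passed as higher and 1.45% as lower, and none of the 9 members was among them (log2 fold change, male minus female, from -0.19 for PHLDA3 to 0.10 for XRCC1, adjusted p = 0.99997 each from edgeR). PHLDA3 was at 0.07 without DFO4. The sexes were also compared in their response. None of the members passed in the difference between males and females of the change with age or with 3TC (0% of genes and TEs passed in either direction, and the members' adjusted p from edgeR was 0.99999 with age and 0.447 to 0.963 with 3TC). The largest such difference with 3TC, male minus female, was -0.64 for PHLDA3 (SE 0.48), in which the female DFO4 takes part, followed by 0.51 for CDKN2A (SE 0.50).

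Some X-linked genes of the same pathways, chosen after their values were seen, differed between the sexes, as did many X-linked genes, of which 42.9% passed as lower in males. EDA2R, a receptor of the TNF receptor family and p53 target, was at 0.961 to 2.81 CPM (median 1.80) in males and 2.22 to 5.22 CPM (median 3.68) in females, or -0.92 on the log2 scale (SE 0.18, edgeR adjusted p = 0.00824), with 7 of the 9 males below all females. TIMP1, an inhibitor of metalloproteinases found in the secretions of senescent cells, was at 0.502 to 1.15 CPM (median 0.909) in males and 1.28 to 2.46 CPM (median 1.53) in females, or -1.03 on the log2 scale (SE 0.18, edgeR adjusted p = 0.00323). APEX2, an endonuclease of base excision repair, was at 1.63 to 2.46 CPM (median 2.15) in males and 2.88 to 3.90 CPM (median 3.31) in females, or -0.66 on the log2 scale (SE 0.10, edgeR adjusted p = 9.34e-04). For TIMP1 and APEX2 all 9 males lay below all females. CETN2, of nucleotide excision repair, the only other X-linked gene of these lists that was measured, was at -0.16 (adjusted p = 0.99997 from edgeR).

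The same direction was measured over the X chromosome as a whole, and the difference was larger at lower levels. Of the 243 genes that were lower in males, 240 were X-linked, 1 was autosomal (IFIT3, an interferon-induced gene, at -0.41 with SE 0.10 and edgeR adjusted p = 0.0490) and the names of FTHL17 and TEX13 were not matched to a chromosome, out of 560 X-linked and 15018 autosomal genes tested. A gene whose counts were in proportion to the copies of X would lie at -1 on this scale, whereas X inactivation, as background, keeps most X-linked RNAs at similar levels in the sexes. In the lowest 10% of genes by TPM, the median log2 fold change of the 139 X-linked genes was -0.90, and in the highest 10% that of 66 X-linked genes was -0.06, while the autosomal median was 0.00 in both. Among X-linked genes within 5 percentile points of CDKN1A in TPM, the median was -0.69 and 43 of 63 were lower in males, and for those near AEN it was -0.57 (28 of 38). TIMP1, at percentile 43.1, lay at -1.03, below the median near its level. EDA2R, at percentile 2.61, and APEX2, at 0.738, were in the lowest 10%, where 99 of 139 X-linked genes were lower in males. The median there was -0.90, with quartiles of -0.997 and -0.734. EDA2R, at -0.92, lay within the quartiles, and APEX2, at -0.66, lay above them, with a smaller difference between the sexes. The median was -0.35 near CDKN2A (15 of 38), -0.33 near XRCC1 (10 of 29), -0.27 near ATM (12 of 41) and -0.11 near CCNG1 (0 of 45). The members themselves lie on autosomes, so the sexes carry the same number of copies, and how far their own counts follow gene copies was not tested.

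**Figure D4:**
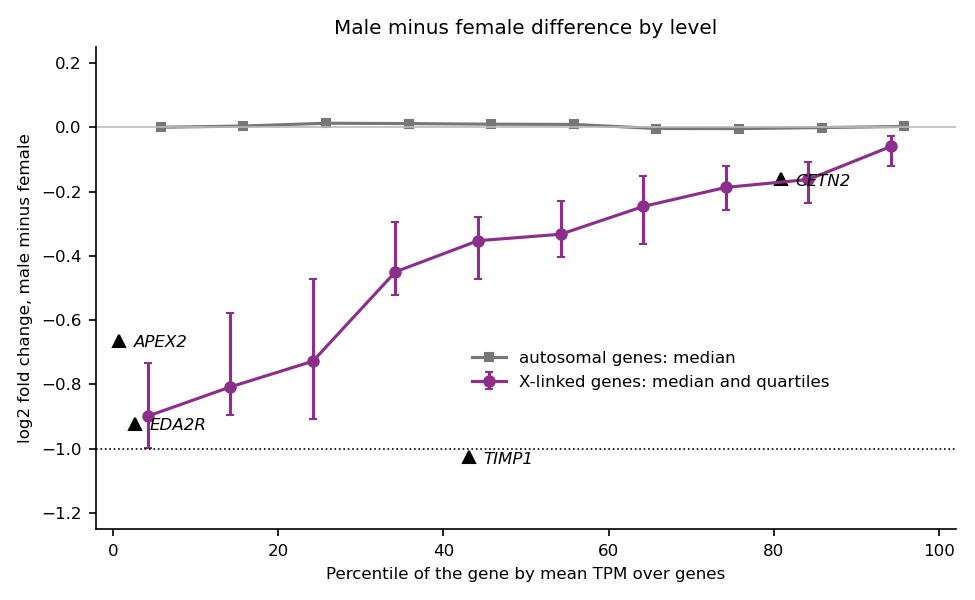
Log2 fold change, male minus female (y axis), by percentile of the gene's mean TPM in steps of 10 (x axis), as the median and quartiles of X-linked genes (circles with bars) and the median of autosomal genes (squares), with 4 X-linked genes of the p53, senescence and repair lists as triangles and a dotted line at -1. The X-linked median runs from -0.90 at the lowest levels to -0.06 at the highest, and the autosomal median from -0.00 to 0.01.

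Most genes varied across the 18 mice with the ratio of TE counts to gene counts of the library, members among them. On the scale of genes and TEs, 38.7% of 15635 genes were higher and 38.4% lower in mice with more TE counts (permutation test of Pearson's r between log2 CPM and the log2 ratio, adjusted over all genes), so that a member that passed was no exception. CDKN1A had r of 0.78 (permutation p = 1.5e-04, adjusted p = 3.16e-04, Spearman rho 0.71 with permutation p = 0.00135), which was above that of 74.2% of genes. CDKN2A had 0.87 (permutation p = 1e-05, the lower limit of 100000 permutations, adjusted p = 3.73e-05, rho 0.72 with permutation p = 0.00123), above that of 85.6%. MDM2 had -0.89 (permutation p = 1e-05, adjusted p = 3.73e-05, rho -0.76 with permutation p = 3.4e-04) and CCNG1 -0.85 (permutation p = 4e-05, adjusted p = 1.03e-04, rho -0.65 with permutation p = 0.0038), above those of 9.62% and 14.3% of genes. The other 5 members had r of -0.45 (BAX) to 0.26 (ATM), with adjusted p of 0.0756 to 0.392.

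Without YM1 and DFO5, the 2 mice farthest from the median ratio, r was 0.78 for CDKN1A, 0.80 for CDKN2A, -0.80 for MDM2 and -0.77 for CCNG1. Within groups it was 0.87, 0.94, -0.93 and -0.80 in older 3TC-treated, 0.82, 0.93, -0.85 and -0.90 in older and 0.85, 0.86, -0.91 and -0.97 in younger mice, for these genes in that order. The signs depended on the scaling, of which 2 were added after seeing the data. Gene counts enter both the ratio and the denominator of CPM on each scale. On the scale of genes and TEs, TE counts do so too. The TMM factor there was 1.343 in YM1, with the lowest share of TEs, and 0.754 in CFO2, with the highest. The part of these shared terms in r was not tested. With CPM and TMM factors over genes alone, 41.6% of genes were higher and 34.2% lower with more TE counts, and the same 4 members passed. With CPM over the gene total, where the gene counts are the denominator of both measures, 58.2% of genes were higher and 11.3% lower, CDKN1A (0.91), CDKN2A (0.93), ATM (0.88), XRCC1 (0.82) and AEN (0.69) passed, MDM2 (-0.36, adjusted p = 0.188) and CCNG1 (-0.20, adjusted p = 0.474) did not, and BAX, PHLDA3 and AEN had the other sign. With the ratio as a term in the fit, none of the 9 members passed in any of the 3 comparisons of groups.

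**Figure D5:**
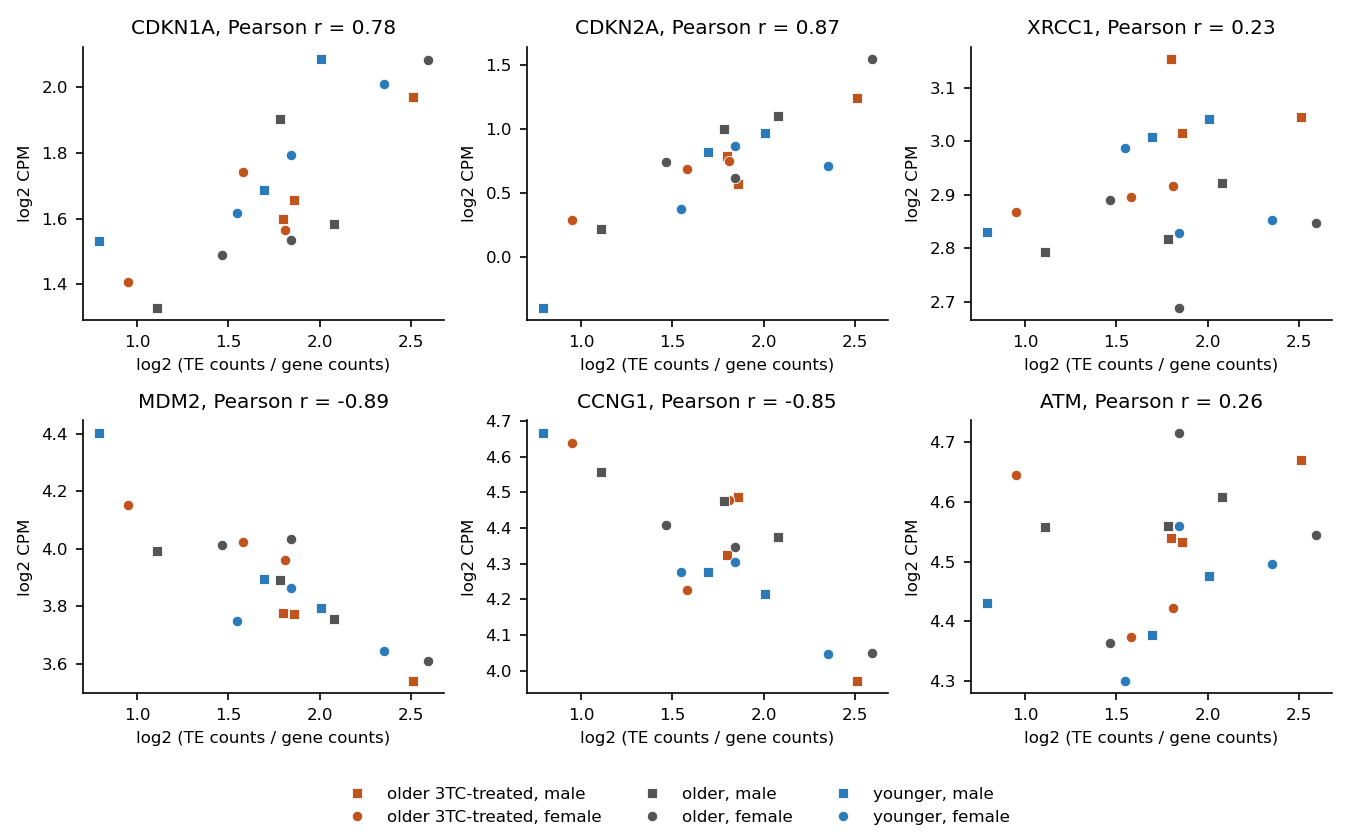
Log2 CPM (y axes) of CDKN1A, CDKN2A, XRCC1, MDM2, CCNG1 and ATM against the log2 ratio of TE counts to gene counts (x axes) in each of 18 mice, colored by group, with squares for males and circles for females, on the scale of genes and TEs together. CDKN1A (r = 0.78) and CDKN2A (0.87) are higher and MDM2 (-0.89) and CCNG1 (-0.85) lower in mice with more TE counts, as were 38.7% and 38.4% of all genes, and the last 2 relations did not pass on the scale of the gene total.

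To describe how the members varied together on the scale of genes and TEs, MDM2 and CCNG1 had a pairwise Pearson r of 0.80 over 18 mice, and CDKN1A and CDKN2A one of 0.67. CDKN1A had one of -0.65 with MDM2 and -0.78 with CCNG1. These genes share libraries and, as most genes do, the relation with the TE ratio. By the same measure the genes most like CDKN1A were SLC12A8 (0.93), THEM5 (0.89) and PSMB11 (0.88), a proteasome subunit of the thymus, and those most like CDKN2A were HOXA7 (0.95), a homeobox gene of posterior body regions, FAM72A (0.94) and OAS2 (0.93). The genes most like MDM2 were LRP6 (0.95), RMND5A (0.95) and SETD7 (0.95), at 36.7 to 55.3 CPM, and those most like CCNG1 were MYO9A (0.95), DMXL2 (0.95) and NPTN (0.95), at 62.7 to 103.9 CPM. SLC12A8, THEM5, PSMB11, HOXA7, FAM72A and OAS2 were at 1.63 to 4.62 CPM.

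In the wider lists of the same pathways 0 genes passed with age or with 3TC, beside the background of 0.0119% and 0%. The counts by sign stand beside 46.4% of all genes above 0 with age and 53.4% with 3TC. Of 33 measured p53 target genes, 11 were above 0 and 22 below with age (median -0.04), with TIGAR, a regulator of glycolysis, having the smallest p (-0.13, SE 0.09), and 13 above and 20 below with 3TC (median -0.01), where it was ERCC5, a repair endonuclease (0.13, SE 0.09). Of 15 p53 regulators and damage kinases, 10 were above 0 with age (median 0.05), with CHEK1, a checkpoint kinase, at 0.27 (SE 0.16) and ATR, the kinase of stalled replication forks, at 0.12 (0.09), and 8 with 3TC (median 0.01), with HIPK2 at 0.17 (0.12). Of 11 CDK inhibitors and pocket proteins, 8 were above 0 with age (median 0.04) and 9 below 0 with 3TC (median -0.02), with CDKN1C at -0.32 with 3TC (SE 0.24), beside a median of -0.58 for the choroid plexus markers, whose part in it was not tested. Of 27 genes of senescence and its secretory phenotype, 14 were above 0 with age (median 0.00) and 13 with 3TC (median -0.00), with the chemokine CXCL2 at 0.36 with age (SE 0.28) and -0.49 with 3TC (0.28), comparisons that share the older mice. BCL2, an inhibitor of cell death held by this list and the next, was at 0.19 with 3TC (SE 0.09, with an edgeR unadjusted p of 0.0417 and adjusted p of 0.9999). Of 17 genes of the BCL2 family and caspases, 6 were above 0 with age (median -0.04) and 6 with 3TC (median -0.04).

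Among repair genes 0 passed as well, and their counts by sign stand beside the same shares of all genes, 46.4% above 0 with age and 53.4% with 3TC. Of 26 genes of base excision and single-strand break repair, 15 were above 0 with age (median 0.03) and 11 with 3TC (median -0.02). After XRCC1, the smallest p with 3TC belonged to the glycosylases SMUG1 (-0.14, SE 0.08) and OGG1 (-0.20, SE 0.13), and with age to POLB, the repair polymerase (0.11, 0.12), and PARP1, the break sensor (-0.10, 0.12). Of 24 genes of double-strand break repair, 15 were above 0 with age (median 0.02) and 12 with 3TC (median -0.01), with XRCC4, of end joining, at 0.19 (SE 0.11) with age and -0.18 (0.11) with 3TC. Of 23 genes of nucleotide excision repair, 10 were above 0 with age (median -0.02) and 7 with 3TC (median -0.03). None of the genes named here passed with age or 3TC (edgeR adjusted p = 0.9999 each).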

How the data were processed

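Hippocampus RNA-seq of 18 mice was used. The authors trimmed reads with fastp, aligned them to mm10 with STAR, keeping reads with several matches, and deposited raw counts of 15644 genes and 1146 TEs. Names of tools and build are from the paper and the submitters' processing notes, and versions and the strand setting are not given in the sources used here. The labels name polyA RNA and the paper total RNA with removal of ribosomal RNA, which was not settled here. From the counts, edgeR 4.0.16 (R 4.3.3) fitted 1 quasi-likelihood model with TMM factors to all 18 mice, for 16774 features whose mean count exceeded 10. Sex was tested with group as a term and as an interaction. Single members were compared by two-sided exact permutation over 924 assignments, and correlations used log2 CPM (prior count 2) and 100000 permutations, with p adjusted over 15635 genes. The members and gene lists were chosen with earlier results of these data known. Named genes are all members, up to 3 genes of smallest p per list and comparison (age, 3TC) and the 3 genes most like a member. The X-linked genes of the lists were chosen after their values were seen, as was the comparison by level. Alternatives were DESeq2 1.42.0, other scalings and filters, sex, the TE ratio or label numbers as terms, and leaving out each mouse, and 2 scalings over genes alone were added after seeing the data. The method was run on simulated counts with the same proportions in each library, apart from genes changed by known folds. These counts lack the variation of the TE ratio, so they cannot show how p behaves under it. Replicate mice differed by at least 4.57 times the counting variance (chi-square per degree of freedom), each being a separate animal. Windows around start sites are RefSeq's. Exon lengths matched 99.7% of genes. Python 3.11.15 and matplotlib 3.10.9 were used for the rest.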

Additional observations from a re-analysis of the deposited data

Results flagged for a closer look

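Within groups of 6 mice, 3 values of members lay far from the others of their group, by Dixon's test of the gap over the range, among 27 groups of values checked. The nominal rate of the test is about 1 in 20, for groups of values that are independent. Other genes were not checked in this way, so the count does not set the members apart. PHLDA3 was at 9.81 CPM in the older 3TC-treated female DFO4 (gap 0.876 of the range). MDM2 was at 21.1 CPM (0.727) and CCNG1 at 25.4 CPM (0.638) in the younger male YM1, the mouse with the lowest share of counts in TEs, 63.4%.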

How the results depend on the processing

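Under all alternatives, 880 of 951 values of members kept their direction, 71 changed sign (56 of them when a mouse was left out) and 0 passed the threshold. CDKN2A was not tested with a mean count above 100. With total counts only, CCNG1 was at -0.0086 with age, CDKN1A at 0.024, MDM2 at 0.024 and CCNG1 at 0.017 with 3TC, and AEN at -0.024 in treated against younger mice, where AEN was at -0.00030 with median-of-ratios factors and -0.00025 with DESeq2. With the TE ratio as a term, MDM2 was at 0.031 with age and CDKN1A at 0.021 with 3TC. The sex difference of the 3TC change of AEN was -0.019 with DESeq2. Correlations with the TE ratio over the gene total changed sign for BAX (0.385), PHLDA3 (0.0899) and AEN (0.694), and no longer passed for MDM2 (-0.356) and CCNG1 (-0.202).

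Of features called, 2 were higher in treated against younger mice, which became 1 with genes only, 1 with a mean count above 100, 1 with only the groups compared and 0 with total counts only. With age 2 were higher, against 0 with total counts only and 4 with the TE ratio. Between the sexes 14 were higher in males, against 6 with genes only, where TEs were not tested.

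The label numbers did not pair the mice (7 pairs, correlations of deviations -0.547 to 0.303, 3 above 0.1). With sex and label number as a replicate block, 0 features were higher with age and 0 in treated against younger mice, CCNG1 was at -0.029 with age, MDM2 at 0.024 and CCNG1 at 0.086 with 3TC, and PHLDA3 at -0.067 and AEN at -0.024 in treated against younger mice.

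With 1 mouse left out at a time, the features called higher numbered 2 to 3 with age, 1 to 2 in treated against younger mice and 11 to 15 in males, and 190 to 265 were lower in males. The log2 fold change of MDM2 with age ran from -0.071 to 0.094. With 3TC it ran from -0.079 to 0.088 for CDKN1A, -0.068 to 0.053 for MDM2, -0.086 to 0.42 for PHLDA3, -0.068 to 0.060 for CCNG1 and -0.065 to 0.0055 for ATM. In treated against younger mice it ran from -0.031 to 0.21 for CDKN2A, -0.095 to 0.081 for MDM2, -0.25 to 0.26 for PHLDA3, -0.045 to 0.038 for AEN and -0.0066 to 0.13 for CCNG1. Between males and females it ran from -0.032 to 0.083 for CDKN1A, -0.081 to 0.12 for CDKN2A, -0.10 to 0.025 for MDM2 and -0.25 to 0.067 for PHLDA3. Apart from the settings that test fewer features or mice, the cause was not tested. CDKN2A, the least counted member (34 to 91 counts), had an SE of 0.24 with age, against 0.08 to 0.25 over the members.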

Other observations

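Genes of cell division, which p53 and the CDK inhibitors restrain, were measured as a further list. Of 10 proliferation markers, 5 were above 0 with age (median log2 fold change 0.00) and 6 with 3TC (median 0.04), beside 46.4% and 53.4% of all genes. None of the 10 passed edgeR's test. MKI67, a marker of cycling cells, was at -0.13 with 3TC (standard error 0.18), and PCNA, the replication clamp, at -0.08 with age (standard error 0.12).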
